A study of Mus musculus with 2 samples.

Results

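The nuclear genes of oxidative phosphorylation were taken as all autosomal protein-coding genes whose symbol starts with Nduf, Uqcr, Atp5, Sdh followed by a to d, or Cox followed by 4 to 8. This gave 91 gene records with 90 symbols, of 20722 autosomal protein-coding genes. Open chromatin at their promoters was read from DNase-seq of whole thymus of newborn mice (strain B6NCrl, 0 days after birth, sexes pooled, labelled healthy). The series held 1 group of 2 biological replicates, so no condition was compared, and every value below is a description with no p-value. Per the labels the replicates are separate biosamples under 1 donor entry, so an SD (n = 2) measures how far apart these samples lie, which may be technical.

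Oxidative phosphorylation is the step of respiration in which electrons pass through complexes I to IV of the inner mitochondrial membrane and the proton gradient they build drives ATP synthase, also called complex V. Most subunits are encoded in the nucleus, and the mitochondrial genome encodes a small hydrophobic core. Several complex IV subunits exist as a general isoform and as an isoform known mainly from heart and skeletal muscle, lung or testis. Nuclear respiratory factor 1 (NRF1), the ETS factor GABP, oestrogen-related receptors (ERR) and YY1 are the textbook regulators of these genes. The thymus, where T cells mature, is filled with dividing thymocytes.

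Of the 86 genes with a promoter peak in replicate 1, 26 held letters of at least 1 of these 4 factors in their strongest peak and 60 held none. The peak sequences below are the 150 bp peaks of replicate 1 with the highest score at each gene, read from GRCm38 (mm10), written 5′ to 3′ on the strand of the gene. They were chosen because they hold a match, to show each of the 4 consensus sequences, and capitals mark matches on either strand to NRF1 (GCGCATGCG), ETS (CCGGAAG), ERR (AAGGTCA) or YY1 (AAGATGGCG). Sdhd, a membrane anchor of complex II (chr9:50603796-50603945, minus strand), holds an ETS and an ERR match. Its peak is centred 58 bp from the Sdhd TSS and 40 bp from that of the neighbouring gene Timm8b. Atp5l, subunit g of ATP synthase (chr9:44920876-44921025, minus strand), holds an NRF1 and an ETS match. Cox6a1, the general isoform of a complex IV subunit (chr5:115348996-115349145, minus strand), and Ndufaf4, a complex I assembly factor (chr4:24897956-24898105, plus strand), each hold NRF1 letters that read as a match on both strands. Atp5g3, a gene for the c-ring subunit of ATP synthase (chr2:73911276-73911425, minus strand), holds an ERR match. Ndufa9, an accessory subunit of complex I (chr6:126849076-126849225, minus strand), holds a YY1 match next to its start.
Sdhd: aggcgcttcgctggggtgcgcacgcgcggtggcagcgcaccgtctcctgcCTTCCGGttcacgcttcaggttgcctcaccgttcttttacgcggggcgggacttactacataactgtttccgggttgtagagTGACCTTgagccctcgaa
Atp5l: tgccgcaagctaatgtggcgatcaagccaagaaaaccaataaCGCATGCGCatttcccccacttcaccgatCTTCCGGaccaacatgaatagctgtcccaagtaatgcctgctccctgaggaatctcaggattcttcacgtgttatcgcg
Cox6a1: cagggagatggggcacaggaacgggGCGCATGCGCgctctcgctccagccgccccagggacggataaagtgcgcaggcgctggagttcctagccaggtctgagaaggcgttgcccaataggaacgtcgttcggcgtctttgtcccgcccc
Ndufaf4: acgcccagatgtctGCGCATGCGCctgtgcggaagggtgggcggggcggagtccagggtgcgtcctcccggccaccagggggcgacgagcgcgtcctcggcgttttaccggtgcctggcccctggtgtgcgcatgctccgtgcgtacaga
Atp5g3: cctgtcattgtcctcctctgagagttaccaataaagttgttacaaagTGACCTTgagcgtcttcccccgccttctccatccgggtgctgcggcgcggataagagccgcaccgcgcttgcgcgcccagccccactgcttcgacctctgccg
Ndufa9: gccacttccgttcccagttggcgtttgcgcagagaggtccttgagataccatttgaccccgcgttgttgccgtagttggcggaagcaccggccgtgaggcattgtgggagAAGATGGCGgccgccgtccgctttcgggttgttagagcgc

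The next sequences are examples from isoforms known from particular tissues, chosen to show 1 that was open and 2 that were not. Cox7a1, the isoform of heart and skeletal muscle, had a peak in both replicates, and its 150 bp (chr7:30184036-30184185, plus strand) hold 5 CpG dinucleotides, against 15 in the peak of the general isoform gene Cox6a1 shown above. Such a count is not limited to these isoforms, since the peak of Atp5b, for the catalytic β subunit of ATP synthase, also holds 5 and that of the tissue isoform Cox4i2 holds 11. Cox8b, another muscle isoform, and Cox7b2, a testis isoform, had no promoter peak, and their RefSeq promoters (GRCm38.p6, 250 bases before to 50 after the start) are shown instead. The Cox8b promoter (chr7:140900397-140900696, minus strand) holds 2 CpG and the Cox7b2 promoter (chr5:71548156-71548455, minus strand) 10. Capitals here mark the letters TATAAA on either strand, found in 7 of 71 RefSeq promoters of oxidative phosphorylation genes (9.86%), Cox8b and Cox7b2 among them, against 14.4% of all genes. The others were Atp5l, Ndufa3, Ndufa7, Ndufb7 and Ndufs7, which are expressed generally. Relative to the start, the match was centred at 6.5 bp (downstream) for Cox8b and −218.5 bp (upstream) for Cox7b2. In the others it lay at −232.5 to −49.5 bp. A match of this kind is a description of letters, not a binding site.
Cox7a1: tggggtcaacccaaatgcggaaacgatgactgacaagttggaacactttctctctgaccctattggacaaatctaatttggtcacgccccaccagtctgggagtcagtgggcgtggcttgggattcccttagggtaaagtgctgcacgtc
Cox8b: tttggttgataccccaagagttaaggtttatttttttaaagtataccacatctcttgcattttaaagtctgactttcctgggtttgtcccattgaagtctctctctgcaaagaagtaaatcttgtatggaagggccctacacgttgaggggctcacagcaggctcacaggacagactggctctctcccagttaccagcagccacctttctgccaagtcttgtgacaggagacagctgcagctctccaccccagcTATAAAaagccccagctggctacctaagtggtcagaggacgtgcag
Cox7b2: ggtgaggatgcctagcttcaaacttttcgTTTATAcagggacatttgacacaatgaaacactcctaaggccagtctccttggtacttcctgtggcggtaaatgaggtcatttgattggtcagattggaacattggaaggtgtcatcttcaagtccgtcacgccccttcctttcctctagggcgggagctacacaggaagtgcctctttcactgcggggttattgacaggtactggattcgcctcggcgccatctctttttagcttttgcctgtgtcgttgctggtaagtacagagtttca

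Nearly every nuclear gene of oxidative phosphorylation had open chromatin at its start in newborn thymus. A promoter peak, one with its midpoint within 1000 bp of a coding transcription start site (TSS), was found in both replicates for 85 of 91 genes (93.4%), against 63.7% of all autosomal protein-coding genes. Replicate 1 had one for 86 genes and replicate 2 for 85. Genes of other cellular machines were like this too. Both replicates had a promoter peak for all 72 cytosolic ribosomal protein genes and for 36 of 38 proteasome genes (94.7%). In a bulk tissue, fewer cells of a type and less open chromatin per cell cannot be told apart.

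Oxidative phosphorylation genes are rich in CpG, and this moves with promoter opening across the genome. Their median was 55 CpG dinucleotides within 500 bp of the gene start, against 43 for all genes. Of all genes whose CpG count lay within the quartiles of the oxidative phosphorylation genes (45 to 68.5), 89.1% had a promoter peak in both replicates. Among oxidative phosphorylation genes with at least 20 CpG the count was 82 of 84 (97.6%), against 85.0% of all such genes. Below 20 CpG it was 3 of 7 (42.9%), namely Cox7a1, Atp5j2 and Cox7a2l, against 22.2% of all such genes. Atp5j2 and Cox7a2l had 10 and 7 CpG at the start of the gene record, but 36 and 56 at the annotated TSS nearest to their peak. For Cox7a1 both counts were 19.

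**Figure D1:**
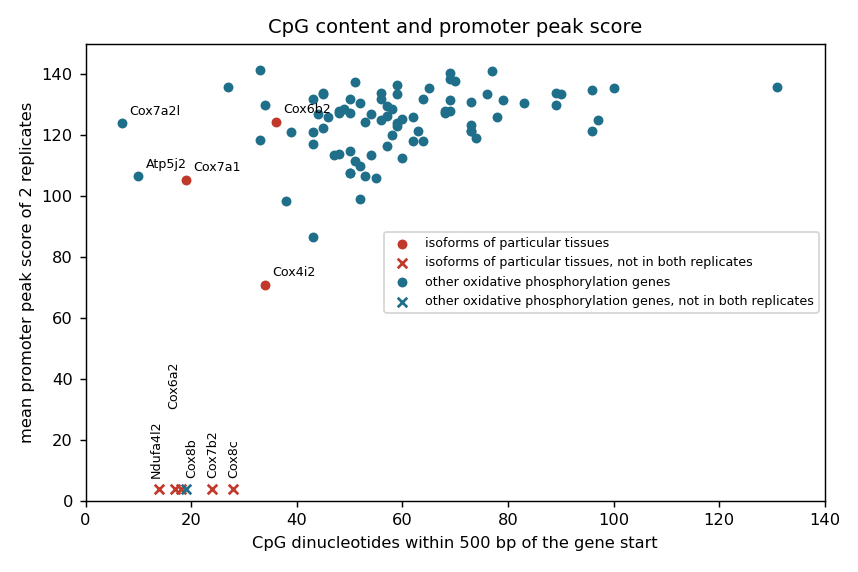
Mean promoter peak score over 2 replicates against the number of CpG dinucleotides within 500 bp of the start of the gene record. Each point is a gene, red for isoforms of particular tissues and blue for the others, and crosses near 0 are genes without a promoter peak in both replicates, all with fewer than 30 CpG. The unlabelled blue cross is the second Atp5o record.

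Promoter strength was read from the peak score deposited by the authors, a whole number from 1 to 150 whose meaning is not given in the sources used here. For a gene with several promoter peaks the highest score was used. The median over oxidative phosphorylation genes was 123 in replicate 1 and 129 in replicate 2 (126 ± 4.24, SD, n = 2). Over all genes with a promoter peak it was 114 and 120 (117 ± 4.24, SD, n = 2). In each replicate this gap between the sets was larger than the gap between the replicates within a set. The oxidative phosphorylation genes were above the median of all genes in 66 of 86 cases in replicate 1 and 65 of 85 in replicate 2. Their scores were also narrowly spread, with quartiles of 115 to 130 and 121 to 135, against 81 to 127 and 82 to 133 over all genes. Cytosolic ribosomal protein genes had medians of 128 and 132, and proteasome genes of 125.5 and 130.

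**Figure D2:**
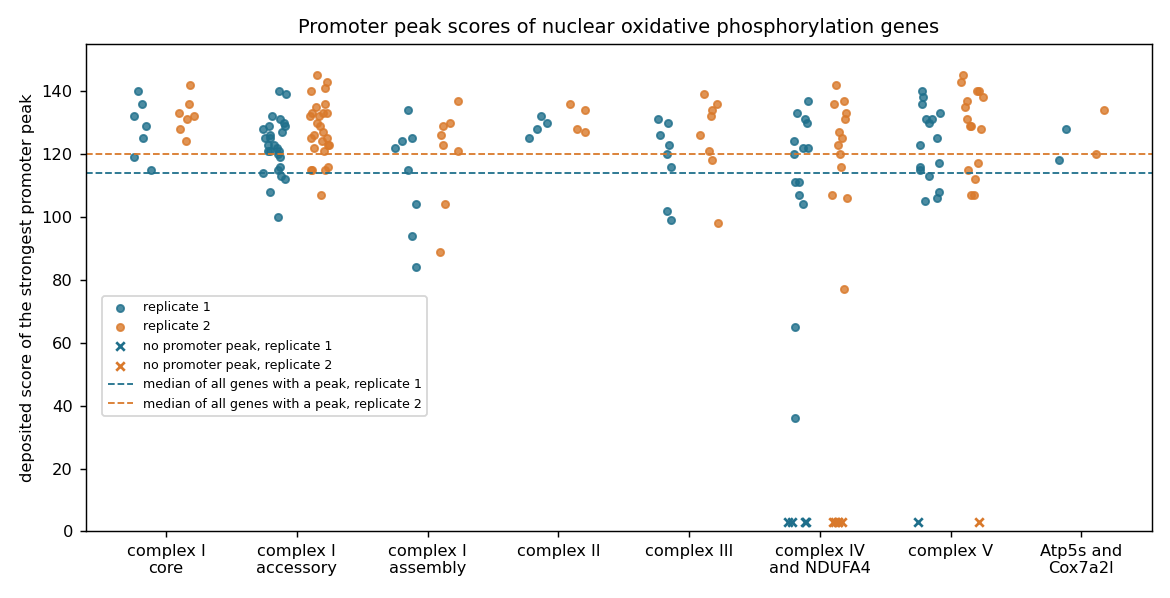
Deposited score of the strongest promoter peak for each gene, grouped by complex, in replicate 1 (blue) and replicate 2 (orange). Crosses at the bottom are genes with no promoter peak, and dashed lines are the medians over all autosomal protein-coding genes with a promoter peak (114 and 120). Most genes of the complexes other than complex IV lie above the lines, and the points under 80 are those of Cox4i2 and Ndufa4l2.

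Complex I, the NADH dehydrogenase, had open promoters throughout. All 7 genes of its core subunits had a promoter peak in both replicates, with median scores of 129 and 132. Ndufv1, which binds the NADH-oxidising flavin, scored 136 and 131, and Ndufs8, an iron-sulphur subunit, 132 and 136. With the peak nearest to the TSS the mean score of Ndufs8 was 111.5, against 134.0. All 27 genes of accessory subunits had a peak in both, with medians of 123 and 127. The strongest were Ndufa6 with 139 and 143, Ndufa2 with 140 and 141, and Ndufb5 with 132 and 145. These lay among the highest peaks of each list, with Ndufa6 ranking above 99.8% and 99.7% of peaks in replicates 1 and 2. The weakest accessory subunit genes were Ndufb7 with 100 and 115 and Ndufc2 with 108 and 107.

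All 8 Ndufaf assembly factor genes, whose products help to build complex I and are not part of it, also had a promoter peak in both replicates. Their medians were 118.5 and 124.5, and 2 of the 4 lowest-scoring genes with a peak in both replicates were among them. Ndufaf1 scored 84 and 89, and Ndufaf6 94 and 104. Ndufaf3, by contrast, scored 134 and 129.

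The 4 complex II genes had some of the most even scores. Sdha, the flavoprotein of succinate dehydrogenase, scored 130 and 134, and Sdhb, its iron-sulphur subunit, 132 and 136. The membrane anchors followed, with 125 and 127 for Sdhc and 128 and 128 for Sdhd. All 8 complex III genes had a peak in both replicates, with medians of 121.5 and 129. Uqcrq had 131 and 136, and Uqcrfs1, the Rieske iron-sulphur protein, 126 and 134. With the peak nearest to the TSS the mean score of Uqcrq was 107.5, against 133.5. Uqcrb was lower, at 99 and 98, and Uqcrc1, a core protein of complex III, had 102 and 121.

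For complex V, 16 of 17 gene records had a promoter peak in both replicates, with medians of 124 and 130. The catalytic β subunit gene Atp5b scored 136 and 135, and Atp5d, for the δ subunit of the central stalk, 138 and 138. The catalytic head gene Atp5a1 was lower, at 108 and 112, as was Atp5e, for the ε subunit, at 105 and 107. The equal scores of Atp5d came from different peaks, which did not overlap between the replicates, and this held for the peaks of Atp5a1 too. With the peak nearest to the TSS the mean score of Atp5a1 was 98.0, against 110.0. The mean score of Atp5d was lower when only the start of the gene record was used. The 3 genes for the c-ring subunit, Atp5g1, Atp5g2 and Atp5g3, encode the same mature protein with different import sequences. They scored 130 and 145, 117 and 129, and 115 and 128. The first 2 values depend on which peak is read. With the peak nearest to the TSS the mean score of Atp5g1 was 86.0, against 137.5, and with the start of the gene record alone that of Atp5g2 was 53.0, against 123.0. The record without a peak is a second Atp5o entry (chr16:91684398-91926982, minus strand) whose only TSS lies inside the first Atp5o gene (chr16:91925214-91931687, minus strand). The first entry, for the stalk subunit OSCP, scored 125 and 129. Without that second record and the isoforms of particular tissues, 82 of 82 genes had promoter peaks in both replicates.

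Complex IV, cytochrome c oxidase, held nearly all the closed promoters, that is, those that lacked a called peak in at least 1 replicate. Of its 16 subunit genes 12 had promoter peaks in both replicates, with medians of 122 and 125 over those with a peak. The NDUFA4 pair, a complex IV subunit and its hypoxia-linked relative, gave 1 of 2. Cox5a scored 120 and 123, Cox5b 124 and 131, Cox7c 122 and 120, and Cox6c 107 and 106. With the peak nearest to the TSS the mean score of Cox7c was 83.0, against 121.0. Cox7a2l, known as a supercomplex factor of complexes III and IV, scored 128 and 120, and Atp5s, coupling factor B, 118 and 134. With the peak nearest to the TSS the mean score of Cox7a2l was 109.5, against 124.0.

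The closed promoters were those of isoforms known mainly from other tissues. Of 8 such genes 3 had promoter peaks in both replicates (37.5%), whereas 9 of 9 general isoform genes did. Over all genes the share was 63.7%. It was 22.2% for genes under 20 CpG, 85.0% for those with at least 20 and 89.1% for those with 45 to 68.5. The medians of the 8 and of the 9 were 21.5 and 59 CpG. Of those 9, 6 are the complex IV genes Cox4i1, Cox6a1, Cox6b1, Cox7a2, Cox8a and Ndufa4, and 3 are the c-ring genes Atp5g1, Atp5g2 and Atp5g3, which have no counterpart among the 8. Cox6a2 (chr7:128205435-128206387) and Cox8b (chr7:140898945-140900446), both of heart and skeletal muscle, had no promoter peak in either replicate. Cox7b2 (chr5:71442824-71548205) and Cox8c (chr12:102899316-102900526), both of testis, had none either. Ndufa4l2, induced by hypoxia (chr10:127514967-127517154), had a peak of score 36 in replicate 1, centred 517 bp upstream in a hotspot of 72 bp, and none in replicate 2. A hotspot lay within 1000 bp of its TSS in both replicates. With hotspots in place of peaks the count was therefore 4 of 8.

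Peaks lay in the neighbourhood of the closed promoters at varying distances. In replicates 1 and 2 the nearest peak to a TSS of Cox6a2 was 1.46 kb and 2.00 kb away, with scores of 35 and 74. For Cox8b it was 2.98 kb and 2.96 kb away with scores of 90 and 83, and for Cox8c 13.4 kb away in both with scores of 55 and 39. For Cox7b2 it was 2.48 kb away with a score of 29 in replicate 1 and 45.9 kb away with a score of 49 in replicate 2. For Ndufa4l2 the nearest peak of replicate 2 was 1037 bp away, just outside the limit, with a score of 44. With a limit of 2500 bp, Cox6a2 and Ndufa4l2 joined the genes with a promoter peak in both replicates, which made 5 of 8.

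The 3 isoforms of particular tissues that did have a promoter peak in both replicates scored below the median of the oxidative phosphorylation genes in each replicate. Cox6b2, the testis isoform of subunit VIb, scored 122 and 127 with a peak centred 16 bp before and 4 bp after its TSS. Its general partner Cox6b1 scored 111 and 116, so here the testis isoform was the higher in both replicates. No other coding TSS was near the Cox6b2 peak, the next being that of Kmt5c at 7302 bp. Cox7a1, of muscle, scored 104 and 107, below its general partner Cox7a2 with 137 and 136. Cox4i2, the isoform of lung, was the lowest of the 85 genes at 65 and 77, against 130 and 142 for Cox4i1. The hotspot under the Cox4i2 peak was 248 bp and 347 bp wide. The remaining general isoforms of complex IV were Cox6a1 with 133 and 137, Cox8a with 131 and 133, and Ndufa4 with 111 and 125. Over the 9 general isoform genes, the c-ring genes included, the medians were 130 and 133. The isoforms of particular tissues had a median of 21.5 CpG within 500 bp of the gene start, against 59 for the general isoforms.

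**Figure D3:**
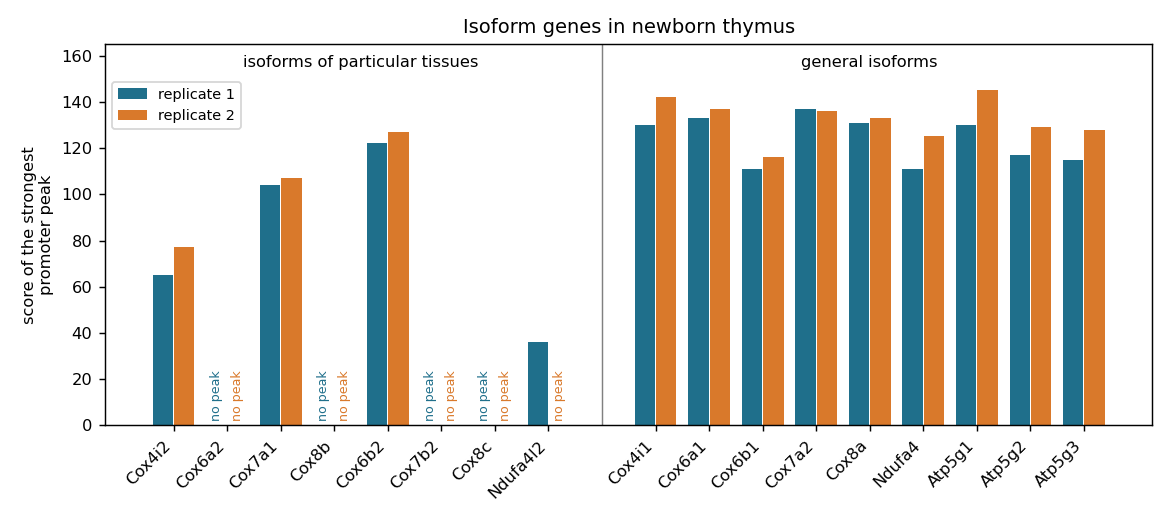
Deposited score of the strongest promoter peak of each isoform gene in replicate 1 (blue) and replicate 2 (orange), with isoforms of particular tissues on the left and general isoforms on the right. Of the 8 genes on the left, Cox4i2, Cox7a1 and Cox6b2 have bars in both replicates, and all 9 on the right do, 6 of complex IV and 3 of the c-ring.

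Marker genes of muscle and male germ cells mostly had no promoter peak in both replicates, at shares near or below that of CpG-poor genes. Of 10 heart and skeletal muscle markers 2 had one, with a median of 11.5 CpG over the 10, against 22.2% of all genes under 20 CpG. These were Myl2 with 83 and 75 at 517 bp downstream and Pygm with 34 and 41. Myh6 scored 14 in replicate 2 alone and Myod1 25 in replicate 1 alone, and Ckm, Ckmt2, Acta1, Actc1, Myh7 and Tnnt2 had none. Of 9 male germ cell markers (median 12 CpG), Prm1 alone had a promoter peak in both (11.1%), with 117 and 118 at 471 and 491 bp upstream. Gapdhs with 32 and Pgk2 with 25 had a peak in replicate 1 alone, and the other 6 had none. All 7 thymocyte markers did, with a median of 18 CpG and median scores of 113 and 113. The part of muscle or germ cells in the peaks of Cox7a1 and Cox6b2 was not tested.

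The open sites sat close to the start of the genes. The median position of the strongest promoter peak was −28 bp from the TSS in replicate 1 and −25 bp in replicate 2 (−26.5 ± 2.12 bp, SD, n = 2), with negative values upstream. For all genes it was −37 and −31.5 bp. The strongest peak lay within 100 bp of the TSS for 83.7% and 83.5% of oxidative phosphorylation genes with a promoter peak, against 62.7% and 64.9% of all such genes. For 69 of the 85 genes this held in both replicates. Ribosomal protein genes gave 88.9% and 87.5%, and proteasome genes 80.6% and 75.7%. In 80 of the 85 genes the strongest peaks of the replicates overlapped, the exceptions being Ndufa13, Uqcrh, Atp5a1, Atp5d and Cox7a2l. By annotation, the midpoint in replicate 1 fell between genes in 50 of the 85, in a UTR exon in 27 and in an intron in 8.

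**Figure D4:**
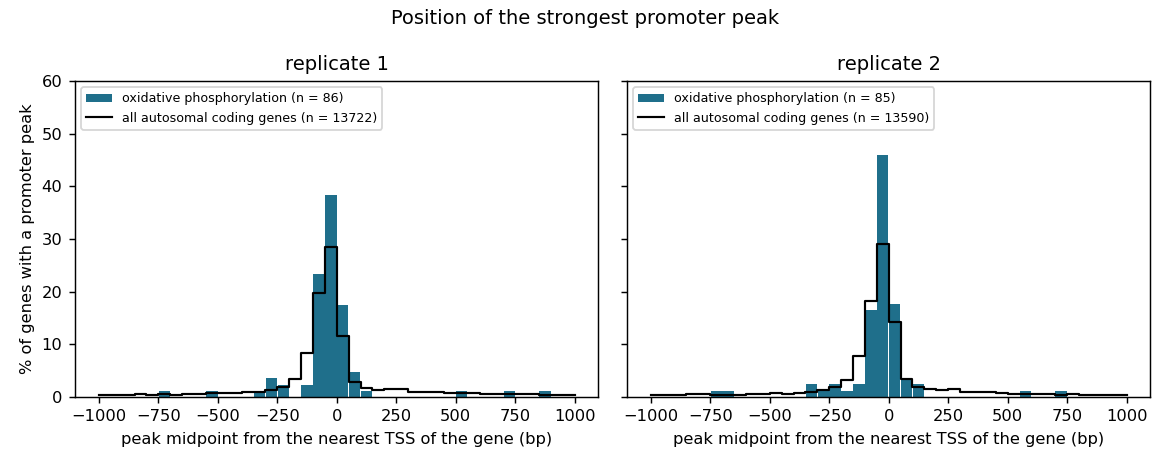
Position of the midpoint of the strongest promoter peak relative to the nearest TSS of the gene, in bins of 50 bp, as a percentage of genes with a promoter peak, for oxidative phosphorylation genes (bars) and all autosomal protein-coding genes (line). Negative values are upstream. The bars rise higher than the line around 0 in both replicates, and the median positions were −28 and −25 bp.

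The hotspots, the wider regions in which the authors found enriched cutting, covered these promoters almost without exception at the top value. The −log10 of the q-value was at its cap of 100 for 84 of 86 oxidative phosphorylation genes in replicate 1 and 85 of 85 in replicate 2, against 87.9% and 88.1% of all genes whose promoter peak lay in a hotspot. Median widths were 1010 and 1207 bp, against 907 and 1191 bp. Ndufs7, a core subunit gene of complex I, had the narrowest among the 85, 190 bp in both replicates, around a peak that scored 129 and 124. More than 1 promoter peak was found at 69 of 86 genes in replicate 1 (80.2%, against 79.1% of all genes) and at 56 of 85 in replicate 2 (65.9%, against 71.1%), up to 6 at Atp5j in replicate 1 and 7 at Ndufaf3 in replicate 2. Uqcr11 had 5 and 4, Uqcrh 4 and 5, and Atp5g2 5 and 4.

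The replicates gave close scores. Of the 85 genes, replicate 2 was higher in 63, lower in 19 and equal in 3, and the median difference of replicate 2 minus replicate 1 was 4, as it was over all genes. The differences of 17 points or more were at Uqcrc1 (102 in replicate 1, 121 in replicate 2), Uqcrh (120, 139), Ndufs3 (115, 133), Ndufaf4 (104, 121), Atp5c1 (123, 140) and Ndufv2 (125, 142). In all 6 genes replicate 2 was the higher. The Uqcrh scores came from peaks that did not overlap, and that of replicate 2 lay nearer to Lrrc41 than to Uqcrh.

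Many of these genes share a promoter with a neighbour. A coding gene on the opposite strand with a TSS within 1000 bp upstream of a TSS of the gene, running the other way, was found for 29 of 91 oxidative phosphorylation genes (31.9%), against 10.1% of all genes, 18.1% of ribosomal protein genes and 21.1% of proteasome genes. Among genes with a promoter peak in both replicates it was 29 of 85 (34.1%), against 15.3% of all such genes. The distance between the closest such pair of TSSs was 3 bp at the least, with a median of 99 bp. Other TSSs of the same genes can overlap. In 24 pairs it was at most 200 bp. The same peak was the strongest for the gene and its neighbour in 24 pairs in replicate 1, in 26 in replicate 2 and in 23 in both, so such a peak cannot be given to either gene.

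Some of the partners also make proteins of mitochondria or of translation. Sdhd starts 98 bp from Timm8b, for a chaperone of the mitochondrial import pathway, and Ndufs6 starts 51 bp from Mrpl36, for a mitochondrial ribosomal protein. Ndufa7 starts 10 bp from Rps28, for a cytosolic ribosomal protein, under a common peak of 126 and 135. Ndufs1 starts 3 bp from Eef1b2, for a subunit of elongation factor 1, under a common peak of 119 and 128. Atp5j, for coupling factor 6, has 4 annotated TSSs, and the innermost lies 686 bp from a TSS of Gabpa, which encodes the DNA-binding subunit of the ETS factor GABP. The strongest peak of both genes, with 131 and 140, was centred 45 and 25 bp from the nearest Gabpa TSS and 533 and 553 bp downstream of another TSS of Atp5j, so the genes overlap here. With the peak nearest to any TSS of Atp5j the mean score was 95.5.

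The remaining pairs were spread over the complexes, with 3 of 4 complex II genes, 4 of 8 assembly factor genes and 1 of 16 complex IV subunit genes. Sdha starts 29 bp from Ccdc127, with a common peak of 130 and 134. Cox4i1 starts 101 bp from Emc8, with a common peak of 130 and 142. None of the isoforms of particular tissues had such a neighbour. The strongest peak was nearer to another gene than to the oxidative phosphorylation gene in at least 1 replicate for 13 of the 85. Atp5f1, for the stalk subunit b and the strongest of all by mean score (140 and 143), was the clearest case, with its peak 729 bp inside the gene and 1 bp from the start of Wdr77. With the peak nearest to a TSS of Atp5f1 the mean score was 90.5. When each peak was given to its nearest gene only, Atp5f1 dropped out of the 85.

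NRF1 letters were more frequent at these promoters than over all genes. In the strongest peak of replicate 1, NRF1 letters were found in 9 of 86 genes (10.5%), against 2.69% of all genes, 5.56% of ribosomal protein genes and 2.78% of proteasome genes. The 9 were Uqcrc1 and Uqcr11 of complex III, Cox6a1 and Cox6c of complex IV, Atp5g2, Atp5k and Atp5l of complex V, and the assembly factors Ndufaf4 and Ndufaf5. In RefSeq promoters, which were found for 71 of the 90 symbols, the share was 10 of 71 (14.1%), against 2.76% of 15680 genes.

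The ETS letters were common everywhere. They were in 15 of 86 peaks of oxidative phosphorylation genes (17.4%), against 14.2% of all genes, 34.7% of ribosomal protein genes and 36.1% of proteasome genes. In RefSeq promoters they were in 18 of 71 (25.4%), against 13.6%. At least 1 of the 4 consensus sequences was in 26 of 86 peaks (30.2%), against 18.4% of all genes, and at least 2 of them in 5 (5.81%), against 0.772%. The 5 were Atp5k, Atp5l, Sdhd, Uqcr11 and Uqcrc1.

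ERR and YY1 letters were rare in the 150 bp peaks and more frequent in 300 bases around them. ERR letters were in 3 peaks (3.49%), at Atp5g3, Atp5mpl and Sdhd. The share was 0.758% of all genes, 1.39% of ribosomal protein genes and 0% of proteasome genes. In 300 bases centred on the peak they were in 10 of 86 (11.6%), against 1.98%, and in RefSeq promoters in 8 of 71 (11.3%), against 4.62%. YY1 letters were in 4 peaks (4.65%), at Ndufa9, Ndufc1, Ndufs4 and Uqcrc1. The share was 1.57% of all genes, 1.39% of ribosomal protein genes and 5.56% of proteasome genes. In 300 bases they were in 11 of 86 (12.8%), against 3.71% of all genes, 8.33% of ribosomal protein genes and 16.7% of proteasome genes. In RefSeq promoters they were in 8 of 71 (11.3%), against 2.23%. Of those 8 matches, 7 were centred 14 to 39 bp downstream of the start, at Atp5j2, Ndufa9, Ndufaf8, Ndufc1, Ndufs4, Ndufs6 and Ndufs7. Over all genes 59.7% of 377 YY1 matches were downstream.

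The letters of more general promoter elements were mostly near or below the shares over all genes. CCAAT, the NFY box, was in 27.9% of peaks against 27.3%, GGGCGG, the SP box, in 39.5% against 53.2%, and TATAAA, the TATA box, in 1.16% against 2.06%. TGACGTCA, the CREB site, was in 4.65% against 3.05%. TGTGGT, the core of the site of RUNX factors, which act in thymocytes, was in 8.14% against 6.33% in replicate 1, and in 5.88% against 6.27% in replicate 2. The 9 genes with NRF1 letters had median scores of 116 and 121, against 123.5 and 129 for those without.

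**Figure D5:**
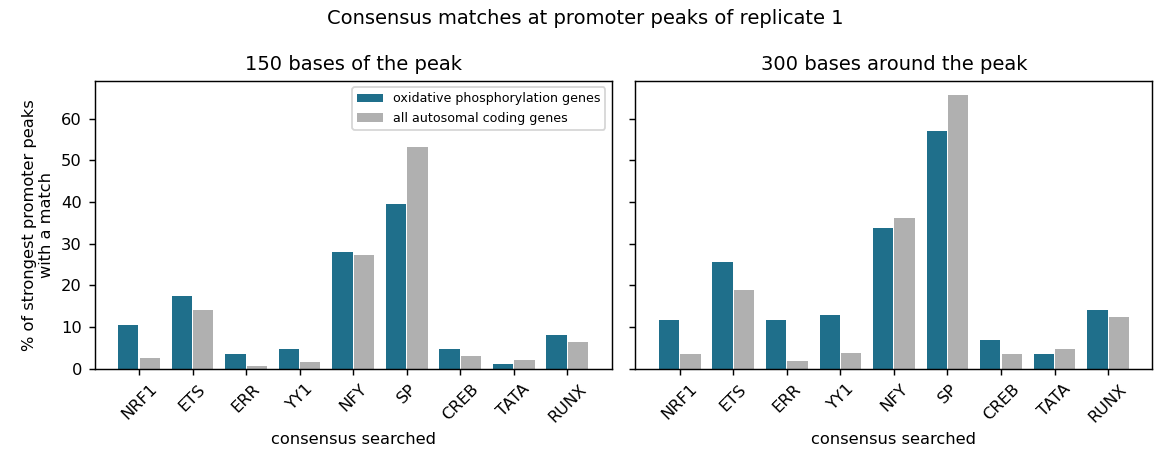
Percentage of strongest promoter peaks of replicate 1 that hold each consensus on either strand, for oxidative phosphorylation genes (blue, n = 86) and all autosomal protein-coding genes with a promoter peak (grey, n = 13722), in the 150 bases of the peak (left) and in 300 bases around its centre (right). NRF1, ERR and YY1 bars are higher in blue in both panels, and SP is lower.

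Open sites beyond the promoter varied widely among these genes. Shared distal peaks, those more than 1000 bp from any coding TSS that overlapped between replicates and were nearest to the gene within 100 kb, averaged 2.07 per oxidative phosphorylation gene, against 3.26 per gene overall. The median was 1 in each set, and 37.4% had none, against 33.5% of all genes. The most were at Cox7a2l with 16, Sdhb with 12, Uqcrfs1 with 11 and Ndufaf6 with 10.

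Other genes of the pathway were mostly open too. Of 6 further electron transfer and ATP synthase genes 5 had promoter peaks in both replicates. Cytochrome c (Cycs) scored 138 and 134, the ATP synthase inhibitor Atpif1 120 and 120, and the testis cytochrome c gene Cyct had no peak. The X-linked subunit genes scored 108 and 99 for Ndufa1, 82 and 94 for Ndufb11, and 103 and 83 for Cox7b, the general partner of the closed Cox7b2. All 31 assembly factors outside the symbol rule had a peak in both replicates, the lowest being Sdhaf1 with 47 and 41. All 12 regulators did too. Nrf1 scored 126 and 137, Esrra, which encodes the receptor ERRα, 138 and 141, and Yy1 140 and 149. Tfam, the packaging factor of mitochondrial DNA, had 119 and 131. The coactivator gene Ppargc1a was the exception in strength with 43 and 25, against 114 and 121 for its relative Ppargc1b.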

How the data were processed

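DNase-seq of newborn thymus was deposited as a list of 150 bp peaks and a list of hotspots for each replicate on mm10 (GRCm38), called per library, per the text deposited beside the files. Depth is unknown, since no read totals, callers or aligner were given in the sources used here. The peak score deposited by the authors is a whole number from 1 to 150. It was used to describe and rank peaks within each list. Scores were also averaged over the replicates and compared between them, with no correction for depth, which is unknown. The score cannot exceed 150, which compresses differences among strong peaks. The hotspot value deposited by the authors is a −log10 q-value with a cap of 100.

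The lists held 154812 and 139702 peaks, and 135932 and 121064 hotspots, in replicates 1 and 2. All lay within GRCm38 lengths. The TSSs were those of protein-coding transcripts in GENCODE M21, with 52092 on autosomes. For each gene the highest-scoring peak with its midpoint within 1000 bp of a TSS was kept. A neighbouring gene's peak can therefore count. CpG was counted within 500 bp of the gene start. Consensus letters were searched on both strands, and promoters of RefSeq (GRCm38.p6) were matched by symbol. Coordinates count from 1.

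The members and lists were chosen with earlier results of these data known. By rule the text names genes without a peak, the strongest and weakest 10, the 5 largest replicate differences with ties, up to 5 with several promoter peaks, isoforms, head-to-head neighbours and list members. Some of these are not reported here. Alternatives were other windows, gene starts, hotspots, peak filters, nearest gene, other sequence windows and each replicate alone. The RefSeq window and the restriction of neighbours to genes with a promoter peak were chosen after seeing the data. The linking of peaks to TSSs and the consensus search, the latter with ETS letters, were tested on simulated data. The other steps were not. Python 3.11.15, numpy 2.4.6, pandas 2.3.3, pysam 0.24.0 and matplotlib 3.10.9 were used.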

Additional observations from a re-analysis of the deposited data

Results flagged for a closer look

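Peaks on the mitochondrial sequence lay outside the comparisons above, which used nuclear genes. Replicate 1 had 25 such peaks and replicate 2 had 19, with a median score of 150 in both lists. Of these, 20 and 14 lay in the protein genes of the mitochondrial genome, which encode the other subunits of complexes I, III, IV and V. Of the 13 genes, 7 in replicate 1 and 6 in replicate 2 held a peak. The most were in mt-Nd5, for a complex I subunit, with 6 and 4 peaks, and in mt-Co1, for the catalytic subunit of complex IV, with 5 and 5. No control sample was available, and the origin of these peaks was not tested.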

How the results depend on the processing

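The count of genes with a promoter peak in both replicates ran from 78 to 87 of 91 over the alternatives, against 85. The share over all genes ran from 57.8% to 67.5%, against 63.7%. The count was 76 of 82 without the assembly factors and 85 and 86 with each replicate alone. With peaks given to the nearest gene only it was 78. With a window of 2500 bp, 5 isoforms of particular tissues had a peak in both replicates, against 3, and each replicate alone gave 3 to 4. The 9 general isoforms kept theirs under every alternative run. The median score ran from 123 to 129 with each replicate alone. The median position was −21.8 bp with the start of the gene record and also −21.8 bp with the peak nearest to the TSS, against −26.5 bp, and −28.0 to −25.0 bp with each replicate alone. Head-to-head neighbours numbered 26 within 500 bp (9.19% of all genes) and 35 with any biotype (17.3% of all genes). ERR letters were in 5 peaks of replicate 2, 10 windows of 300 bases, 10 windows around the TSS and 8 RefSeq promoters, against 3. YY1 letters were in 11 windows of 300 bases (12.8%, against 3.71%) and 8 RefSeq promoters (11.3%, against 2.23%), against 4 peaks. TATAAA was in 2 peaks of replicate 2 (2.35%, against 1.80% of all genes), against 1 in replicate 1. It was in 3 windows of 300 bases (3.49%, against 4.63%) and 12 around the TSS (13.2%, against 12.7%). TGTGGT was in 12 windows of 300 bases (14.0%, against 12.3%) and 13 around the TSS (14.3%, against 15.4%), against 7 peaks. Both were near the shares over all genes. These windows are longer than the peak or placed differently. For single genes, the score moved beyond the replicate SD in 14 of 85 with the peak nearest to the TSS and in none with a window of 2500 bp. No paired analysis was possible because there is 1 group. The unknown depth limits every statement on an absent peak.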
